A study of Mus musculus with 10 samples.

Results

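This account follows 10 neural genes through RNA-seq of the mandibular prominence (MNP) of the mouse embryo, the facial bud that forms the lower jaw. The genes were taken by name for their roles. Otx2, Sox2, Pax6 and Olig3 are transcription factors of brain and neural tube progenitors, Dcx, Tubb3 and Elavl3 are made by neurons in general, and Neurod1, Pou4f1 and Isl1 are transcription factors of cranial sensory neurons. They are 10 of the 33641 gene symbols in the deposited counts. The question put to them was whether the nervous tissue in the libraries looked like nerve and ganglion or like brain, and whether the genotypes differed in it.

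The study compared WT MNPs with MNPs that had lost Hand2 or both Gli2 and Gli3 in the neural crest, to ask how these transcription factors act in jaw development. All embryos were embryonic day (E) 10.5 mice of the CD1 strain, and polyA RNA was read from the whole dissected prominence. Of the 10 samples of the series, 6 were analysed here: 2 WT libraries (WT 3 and WT 4), 3 Hand2 cKO libraries (Hand2 f/f; Wnt1-Cre+) and 1 Gli2/3 cKO library (Gli2 f/f and Gli3 f/f with Wnt1-Cre+). The sources used here do not say how many embryos went into a library, so p-values measure the spread between these libraries only, and the Gli2/3 cKO has no replicate. Wnt1-Cre is a transgene active in premigratory neural crest and in parts of the dorsal neural tube, and it leaves the epithelium, the mesoderm and placode-derived neurons unrecombined. The labels of the WT embryos name no Cre, so Cre and the deleted alleles cannot be told apart.

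As background, the lower jaw is innervated by the mandibular branch of the trigeminal nerve. The cell bodies of its sensory neurons lie in the trigeminal ganglion, outside the MNP, and come from both placode and neural crest. Neurogenin and Neurod factors start sensory neurons off, and Pou4f1 and Isl1 then set their mature programme. Dcx, Tubb3 and Elavl3 come on as any neuron leaves the cell cycle. Several of these genes are also used outside the nervous system: Sox2 marks oral and pharyngeal epithelium, Isl1 marks early oral and mandibular epithelium and pharyngeal mesoderm, and Otx2 has a role in the cranial neural crest of the first arch. In bulk RNA, fewer cells of a type and less RNA per cell cannot be told apart.

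The libraries held 21420197 to 53326697 estimated counts. Levels are given below as CPM, the usual read count relative to library size, here with library sizes scaled by edgeR's TMM method, and intervals on a single library's CPM cover counting error only. The 10 mesenchyme markers, Prrx1, Twist1, Dlx5 and the like, summed to 1706 to 1965 CPM, and the 14 markers of epithelium and pharyngeal endoderm to 316 to 386 CPM, so every library carried the RNA of the labelled tissue. Hand2 lay at 175 and 209 CPM in WT and at 13.4 to 25.5 CPM in the Hand2 cKO. The Gli2/3 cKO library held Gli2 at 58.3 CPM and Gli3 at 80.2 CPM, the lowest level of each among the 6 libraries. Hand2 cKO 2 stood apart. In it a gene's level fell by 0.23 on the log2 scale for each doubling of transcript length. The slopes in the other libraries were -0.06 to 0.11. The Hand2 cKO differences of Otx2 and Dcx are given with and without Hand2 cKO 2, and most other differences only with it.

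Start regions of 3 genes are printed first, and these genes were chosen after their values were seen. Otx2 was high in both mutants, Olig3 was high in the Gli2/3 cKO and Dcx was low in the Hand2 cKO. None of these differences was called by the main edgeR test given below, and Olig3 could be tested only because some library was high. Hand2 is a basic helix-loop-helix factor that binds E-boxes, and GACCACCC is the canonical, high-affinity Gli motif, so both were searched for on both strands. The study also reports a divergent Gli motif of lower affinity, found at most MNP sites shared by Gli3 and Hand2. That divergent motif was not searched for here. The sequences are the bases before the start, in RefSeq windows on the GRCm38.p6 assembly, 5' to 3' on the gene's own strand, with each E-box (CANNTG) in capitals. For Otx2 the start near transcript Otx2-201 and the start near transcript Otx2-202 are both shown, since the libraries differed in which of them carried the counts.
Otx2, start of Otx2-201, chr14:48665110-48665359, minus strand: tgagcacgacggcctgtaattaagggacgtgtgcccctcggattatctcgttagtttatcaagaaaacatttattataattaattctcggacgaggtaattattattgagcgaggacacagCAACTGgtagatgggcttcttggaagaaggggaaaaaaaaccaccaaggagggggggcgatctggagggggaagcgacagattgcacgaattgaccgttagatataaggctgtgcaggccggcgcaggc
Otx2, start of Otx2-202, chr14:48667514-48667758, minus strand: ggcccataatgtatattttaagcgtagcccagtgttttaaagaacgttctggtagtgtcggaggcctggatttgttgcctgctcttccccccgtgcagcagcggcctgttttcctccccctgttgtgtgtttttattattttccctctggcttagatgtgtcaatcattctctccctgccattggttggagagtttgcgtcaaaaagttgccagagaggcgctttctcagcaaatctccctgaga
Olig3, chr10:19356289-19356532, plus strand: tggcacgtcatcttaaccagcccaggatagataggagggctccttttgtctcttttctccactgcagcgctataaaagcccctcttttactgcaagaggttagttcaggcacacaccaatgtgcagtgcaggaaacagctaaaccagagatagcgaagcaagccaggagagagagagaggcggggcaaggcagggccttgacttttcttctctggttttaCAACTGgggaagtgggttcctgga
Dcx, chrX:143933312-143933469, minus strand: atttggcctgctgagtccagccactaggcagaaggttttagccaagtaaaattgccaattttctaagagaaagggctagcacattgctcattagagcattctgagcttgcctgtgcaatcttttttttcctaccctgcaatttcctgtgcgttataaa
The stretch by the Otx2-201 start and the Olig3 stretch each held 1 E-box, CAACTG in both, and the other stretches held none.

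All 10 genes matched the RefSeq windows, which run from 250 bases before to 50 bases after a start, with 15 windows in all. None of the 15 held GACCACCC, which was present in 0.807% of all 32851 windows, and none held TTCAGCACC, the left part of the RE1 element bound by the neuronal repressor REST, present in 0.371% of them. An E-box was found in 72.3% of all windows. Of the 15 windows, 10 held at least 1. Both Dcx windows and the Tubb3 window had no E-box, Sox2, Olig3, Isl1 and Neurod1 had 1, and Elavl3 and Pou4f1 had 2. The 2 Pax6 windows had 0 and 1. Of the 4 Otx2 windows, the 2 printed in part above had 1 and 0, the window of a start further into the gene had 2, and the window of a start 131 bases outside the 5' end of Otx2-202 had 1. Such matches are a description of these letters in these windows. Whether the windows hold the divergent Gli motif was not tested, so a lack of GACCACCC does not mean a lack of Gli sites. The windows of the 10 genes had a median of 16 CpG dinucleotides against 7 over all windows, with a median GC content of 53.7% against 52.7%.

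Per kilobase of transcript, the genes spanned a wide range of levels. Isl1 was the most abundant, with a mean of 11.3 CPM per kilobase over the 6 libraries and a range of 8.98 to 17.3. Sox2 followed with a mean of 5.72 CPM per kilobase and Tubb3 with 4.19. The Isl1 range lay above that of Sox2, and the ranges of Sox2 (4.28 to 6.80) and Tubb3 (3.16 to 5.09) overlapped. A gap then separated Tubb3 from the other 7 genes, whose means ran from 0.538 CPM per kilobase for Otx2 through 0.516 for Dcx, 0.233 for Pax6, 0.167 for Elavl3, 0.162 for Pou4f1 and 0.140 for Olig3 to 0.0452 for Neurod1. Each of these 7 overlapped its neighbour in that order. The 2 genes at the top and Otx2 are among those with known uses outside neurons.

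**Figure D1:**
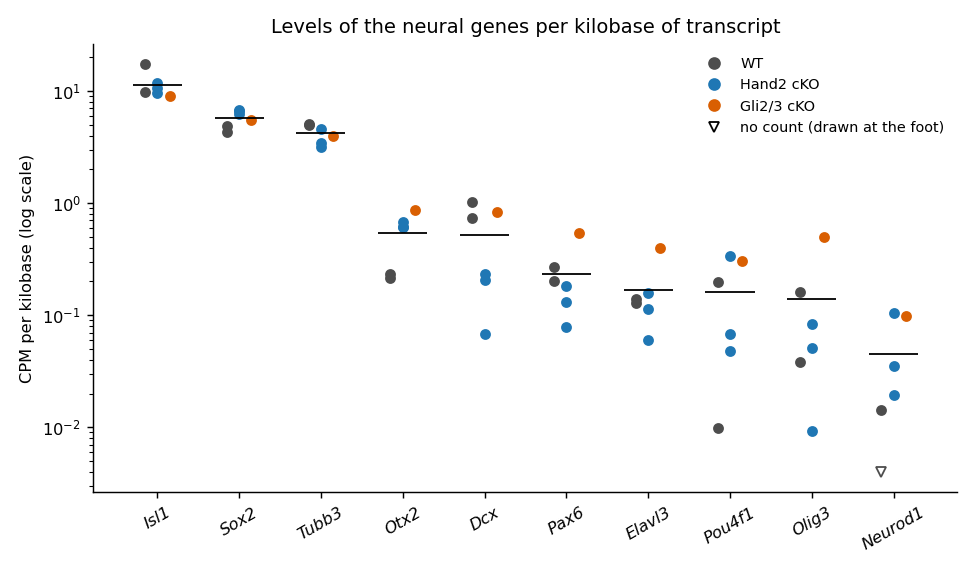
CPM per kilobase of transcript on a log axis for the 10 genes in the order of their means (black bars), with each point 1 library and the genotype given by colour. Isl1, Sox2 and Tubb3 lie above 3 CPM per kilobase in every library, and the other 7 genes lie near or below 1.

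Every one of the 10 genes passed the filter on low counts, some of them narrowly. Otx2, Sox2, Dcx, Tubb3, Elavl3 and Isl1 were over the filter's limit of 0.239 CPM, set on unscaled library sizes, in all 6 libraries, Pax6 in 4 and Pou4f1 in 3. Neurod1 passed only through Hand2 cKO 1 and the Gli2/3 cKO library, and Olig3 only through WT 4 and the Gli2/3 cKO library, so those 2 genes could enter the test only where some library was high.

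Among the brain progenitor factors, Otx2 (chr14:48657677-48673819, minus strand), a homeobox gene required for forebrain and midbrain, was higher in each mutant library than in each WT library. Its level was 0.448 CPM in WT 3 and 0.398 CPM in WT 4, on 23 and 9 counts. The Hand2 cKO libraries held 1.08, 1.32 and 0.987 CPM on 57, 50 and 41 counts, and the Gli2/3 cKO library held 1.68 CPM on 44 counts. The CPM values of the 3 genotypes did not overlap, with WT lowest and Gli2/3 cKO highest, though some counting intervals did. Hand2 cKO exceeded WT by 1.40 ± 0.35 (SE) on the log2 scale, with a 95% interval of 0.55 to 2.24, and the edgeR quasi-likelihood p was 0.0066 before and 0.594 after Benjamini-Hochberg adjustment over 17477 genes. Gli2/3 cKO exceeded WT by 1.97 ± 0.43, with an interval of 0.93 to 3.02 and an edgeR adjusted p of 0.625. Neither difference passed the adjusted threshold, and the mutants differed from each other by 0.58 ± 0.39 (edgeR adjusted p = 0.906). Without Hand2 cKO 2 the Hand2 cKO difference was 1.26 ± 0.34.

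Otx2 counts also fell on different transcripts. The estimates put 54.4% of the Otx2 counts of WT 3 and 41.0% of those of WT 4 on Otx2-201, which starts within 3 bases of the RefSeq start printed first above, and the rest on Otx2-202, whose 5' end lies 2404 bases further out than that start. In the Hand2 cKO libraries Otx2-201 took 64.5%, 100% and 73.7% of the counts, and in the Gli2/3 cKO library 76.7%. Every mutant library thus had a larger share on Otx2-201 than either WT library, although the WT shares rest on 9 and 23 counts. No test was made of it, and the split of reads between transcripts is an estimate by the authors' software.

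Sox2 (chr3:34650405-34652461, plus strand), a factor of neural progenitors and of foregut and oral epithelium, lay at 9.97 and 8.80 CPM in WT. It reached 14.0, 13.6 and 12.9 CPM in the Hand2 cKO and 11.3 CPM in the Gli2/3 cKO. The Hand2 cKO libraries were all above the WT libraries, and the Gli2/3 cKO library lay between them. The Hand2 cKO difference was 0.52 ± 0.17 on the log2 scale, a 1.44-fold ratio of the group means, with an edgeR p of 0.021 and adjusted p of 0.723. The Gli2/3 cKO difference from WT was 0.26 ± 0.22 (edgeR adjusted p = 1). Sox2 carried 86.5% of the summed CPM of the 4 progenitor factors, so a sum over the 4 is mainly Sox2. The summed level of the epithelial list was 331 CPM in both WT libraries and 326 to 386 CPM in the Hand2 cKO, and its part in the Sox2 values was not tested.

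Pax6 (chr2:105668900-105697364, plus strand), a homeobox gene of forebrain, hindbrain, spinal cord and eye, went the other way from Otx2 in the Hand2 cKO. It was measured at 0.701 and 0.619 CPM in WT on 36 and 14 counts, at 0.454, 0.264 and 0.193 CPM in the Hand2 cKO on 24, 10 and 8 counts, and at 1.11 CPM in the Gli2/3 cKO on 29 counts. The Hand2 cKO libraries lay below WT without overlap and the Gli2/3 cKO library above all others. The differences were -1.10 ± 0.49 for Hand2 cKO against WT (edgeR adjusted p = 0.723), 0.74 ± 0.64 for Gli2/3 cKO against WT (adjusted p = 1) and 1.84 ± 0.58 for Gli2/3 cKO against Hand2 cKO (adjusted p = 0.790).

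Most of the Pax6 counts did not lie on a coding transcript. Over the 6 libraries, 40.1% fell on Pax6-221, annotated as a retained intron, 26.5% on Pax6-216, a noncoding processed transcript, and 25.1% on the coding Pax6-208, out of 26 annotated transcripts of which 7 had any count. Pax6-221 held 28.5% to 58.4% of the counts in the WT and Hand2 cKO libraries and 2.88% in the Gli2/3 cKO, where Pax6-216 held 46.0%. On the most abundant transcript alone, the Gli2/3 cKO lay below WT by -3.14 on the log2 scale, the reverse of the gene-level value. The direction of Pax6 in the Gli2/3 cKO therefore depends on which transcripts are summed.

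Olig3 (chr10:19356533-19358604, plus strand), a basic helix-loop-helix factor of dorsal neural tube and hindbrain progenitors, was near the detection limit in 5 libraries. It had 4 and 7 counts in WT (0.0779 and 0.310 CPM), 1, 4 and 7 counts in the Hand2 cKO (0.0189, 0.106 and 0.169 CPM) and 27 counts, 1.03 CPM, in the Gli2/3 cKO. The Gli2/3 cKO library was 3.34-fold above the highest other library, while WT and Hand2 cKO overlapped. Pooled counts per scaled library size put Gli2/3 cKO at 6.95-fold of WT, with an exact 95% counting interval of 3.34 to 15.5. In the edgeR fit, which borrows the spread between libraries, the difference was 2.54 ± 1.16 against WT (adjusted p = 1) and 3.41 ± 1.05 against the Hand2 cKO (adjusted p = 0.763).

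**Figure D2:**
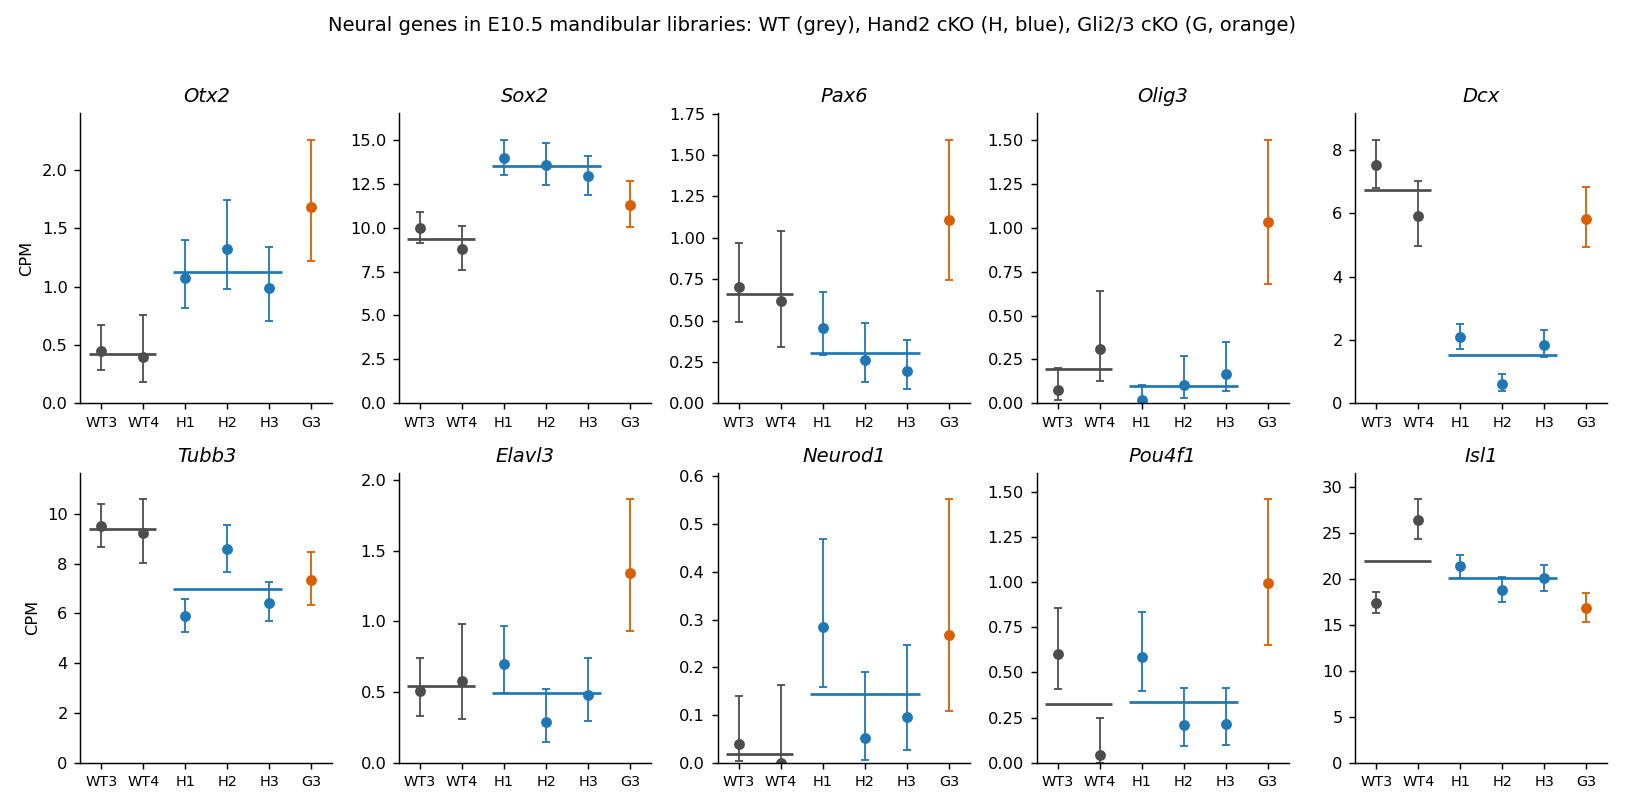
CPM of the 10 genes in each library, on axes that start at 0, with 95% Poisson counting intervals as bars and group means as horizontal lines for WT and Hand2 cKO. The points for Otx2 are lowest in WT and highest in the Gli2/3 cKO library, though some of its counting intervals overlap between genotypes. Dcx is low in the 3 Hand2 cKO libraries, and Olig3, Pax6, Elavl3 and Pou4f1 are highest in the Gli2/3 cKO library.

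**Figure D3:**
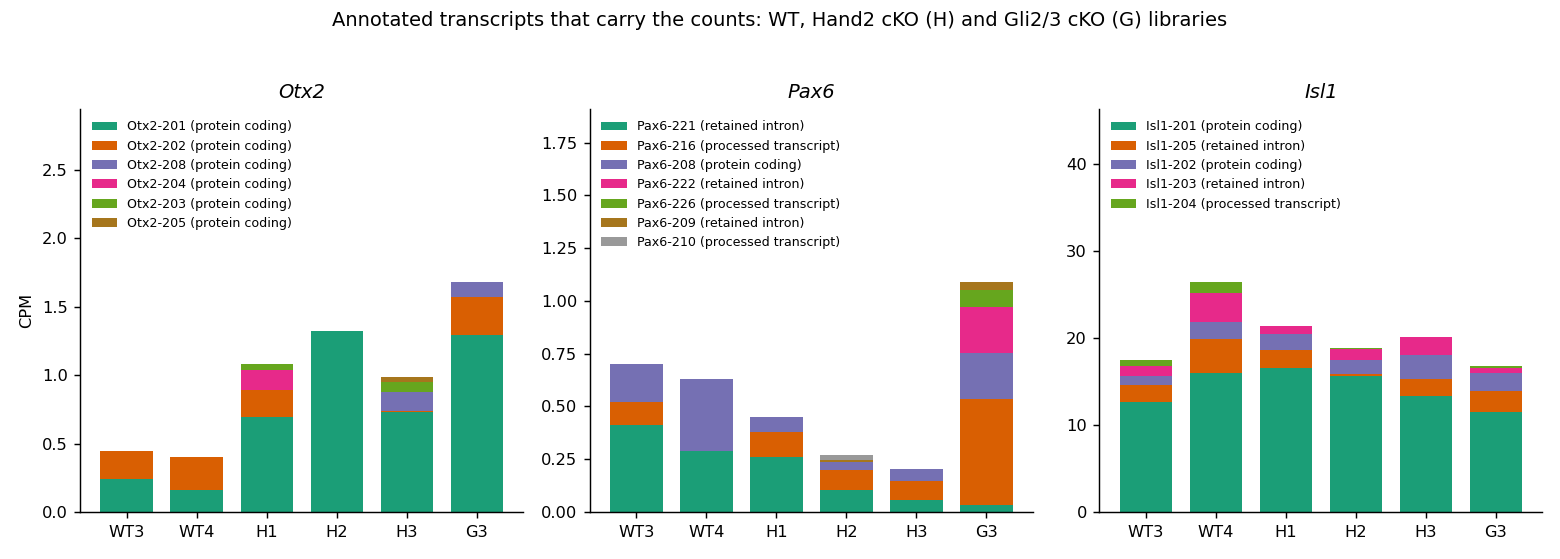
Stacked bars of CPM by annotated transcript for Otx2, Pax6 and Isl1 in the 6 libraries. Otx2-201 takes the larger share in every mutant library, Pax6 counts are mostly on noncoding or retained-intron transcripts, and Isl1-201 dominates Isl1 throughout.

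Among the pan-neuronal genes, Dcx (chrX:143855842-143933311, minus strand), which codes for the microtubule-binding protein doublecortin of migrating young neurons, had the largest difference below WT among the 10 genes. Its level was 7.54 and 5.92 CPM in WT on 387 and 134 counts. In the Hand2 cKO it was 2.08, 0.607 and 1.85 CPM on 110, 23 and 77 counts, and in the Gli2/3 cKO it was 5.82 CPM on 152 counts. The 3 Hand2 cKO libraries lay far below the others, at 0.225 of the WT mean, and the Gli2/3 cKO library was close to WT 4.

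The Hand2 cKO difference in Dcx was -2.15 ± 0.50 on the log2 scale, with a 95% interval of -3.35 to -0.94. The edgeR p was 0.0047 and its adjusted p 0.526, so the gene was not called by the main test. DESeq2's Wald test called it, with a difference of -2.14 ± 0.52 and an adjusted p of 0.00542, and over 14 alternative settings the difference ran from -2.45 to -1.78 and the adjusted p from 2.95e-05 to 0.953. Hand2 cKO 2, the library whose long genes read low, had the lowest Dcx. Over all libraries together, 94.5% of the Dcx counts lay on Dcx-201, a transcript of 9074 bases. Without Hand2 cKO 2 the difference was -1.79 ± 0.22 (edgeR adjusted p = 0.0712), and in DESeq2, a setting added after the data were seen, -1.78 ± 0.34 (adjusted p = 2.95e-05). With the length trend removed from every library it was -2.05 ± 0.35 (edgeR adjusted p = 0.140).

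The mutants were also compared for Dcx without WT. Gli2/3 cKO exceeded Hand2 cKO by 1.93 ± 0.59 (edgeR adjusted p = 0.761, DESeq2 adjusted p = 0.207), and by 1.56 ± 0.42 in DESeq2 without Hand2 cKO 2 (adjusted p = 0.014). Gli2/3 cKO against WT gave -0.21 ± 0.67, with an interval of -1.84 to 1.41 that does not settle whether Dcx moved there.

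Tubb3 (chr8:123411424-123422015, plus strand), the neuronal beta-tubulin, differed less between libraries than Dcx. It lay at 9.51 and 9.24 CPM in WT, at 5.90, 8.58 and 6.43 CPM in the Hand2 cKO and at 7.35 CPM in the Gli2/3 cKO. All 4 mutant libraries were below both WT libraries, by -0.43 ± 0.22 in the Hand2 cKO (edgeR adjusted p = 0.723) and -0.35 ± 0.31 in the Gli2/3 cKO (adjusted p = 1). In contrast to Dcx, Hand2 cKO 2 was the highest of the Hand2 cKO libraries. Tubb3 overlaps the gene model Gm20388 on the same strand, which held 1161 to 3231 counts per library, so the split of reads between them is uncertain.

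Elavl3 (chr9:22015005-22052023, minus strand), an RNA-binding protein of neurons, was at 0.507 and 0.575 CPM in WT, 0.700, 0.290 and 0.482 CPM in the Hand2 cKO and 1.34 CPM in the Gli2/3 cKO. WT and Hand2 cKO overlapped, and the Gli2/3 cKO library was 1.91-fold above the highest of them, on 35 counts. Its differences were -0.12 ± 0.49 for Hand2 cKO against WT (edgeR adjusted p = 0.940), 1.31 ± 0.62 for Gli2/3 cKO against WT (adjusted p = 1) and 1.43 ± 0.56 for Gli2/3 cKO against Hand2 cKO (adjusted p = 0.891). Among the Hand2 cKO libraries Dcx and Elavl3 were lowest in replicate 2, where Tubb3 was highest.

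Among the sensory neuron factors, Neurod1 (chr2:79452521-79456751, minus strand), a driver of neuronal differentiation in cranial ganglia, was barely present. It had 2 and 0 counts in WT, 15, 2 and 4 counts in the Hand2 cKO and 7 counts in the Gli2/3 cKO. The highest level was 0.284 CPM in Hand2 cKO 1, and 0 counts in WT 4 allow a level of up to 0.133 CPM. Pooled counts put Hand2 cKO at 5.87-fold of WT with an exact 95% counting interval of 1.44 to 51.6, and Gli2/3 cKO at 9.90-fold with an interval of 1.89 to 97.7. These intervals leave out the spread between libraries, and most of the pooled Hand2 cKO counts were the 15 of Hand2 cKO 1. The edgeR fit gave adjusted p = 0.723 and adjusted p = 1, and DESeq2 set no adjusted p. Neurod1 overlaps Cerkl on the same strand, which had 9 to 40 counts per library.

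Pou4f1 (chr14:104461676-104467999, minus strand), the POU factor Brn3a of sensory neurons, varied most between the 2 WT libraries. It was at 0.604 CPM in WT 3 and 0.0442 CPM in WT 4, on 31 counts and 1 count. The Hand2 cKO libraries held 0.586, 0.211 and 0.217 CPM, and the Gli2/3 cKO library held 0.995 CPM on 26 counts. WT and Hand2 cKO overlapped, and the difference of -0.05 ± 0.92 turned to 2.87 when WT 3 was left out, so these WT libraries give no level to compare with. Gli2/3 cKO against WT was 1.48 ± 1.18 (edgeR adjusted p = 1).

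Isl1 (chr13:116298281-116309689, minus strand), a LIM-homeobox factor, was the highest of the 10 genes per kilobase, and its WT and Hand2 cKO libraries overlapped. It was at 17.4 and 26.5 CPM in WT, 21.4, 18.8 and 20.1 CPM in the Hand2 cKO and 16.8 CPM in the Gli2/3 cKO. The Hand2 cKO libraries lay within the WT range, and the Gli2/3 cKO library just below it. The differences were -0.13 ± 0.22 (interval -0.65 to 0.40) and -0.38 ± 0.30 (interval -1.10 to 0.34), with edgeR adjusted p = 0.852 and adjusted p = 1. Isl1 made up 97.3% of the summed CPM of the 3 sensory factors. WT 4, the library with 1 Pou4f1 count and no Neurod1 count, had the highest Isl1, so Isl1 did not follow the other sensory factors. Isl1-201, coding, held 72.3% of the Isl1 counts, and the retained-intron transcript Isl1-205 held 9.80%.

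Over the 10 genes, Hand2 cKO against WT called 0 by edgeR at adjusted p below 0.05 and a fold above 1.5, against a background of 0% of all tested genes called higher and 0.0114% called lower. At an unadjusted edgeR p below 0.05, 2 were higher (Otx2 and Sox2) and 1 lower (Dcx), against 2.44% and 4.02% of all genes, and DESeq2 called 0 higher and 1 lower (Dcx), against 0.221% and 0.859%. DESeq2 without Hand2 cKO 2 also called Dcx alone, against 0.334% higher and 1.03% lower. Libraries did not overlap for 3 higher (Otx2, Sox2 and Neurod1) and 3 lower (Pax6, Dcx and Tubb3), against 15.3% and 15.7% of all genes. For Neurod1, WT 3 and Hand2 cKO 2 had 2 counts each, so those libraries were separated only by their scaled size. Neurod1 also passed the filter only through mutant libraries where it was high. The median difference of the 10 was -0.12, beside a median of -0.00012 for all genes tested. The genes thus went both ways in the Hand2 cKO, and the progenitor factors did so among themselves.

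Gli2/3 cKO against WT, which shares its WT libraries with the comparison above, called 0 of the 10 by edgeR and 0 by DESeq2. The background was 0% higher and 0.0114% lower by edgeR, and 0.123% and 0.668% by DESeq2. At an unadjusted edgeR p below 0.05, 1 was higher (Otx2) and 0 lower, against 1.63% and 2.96% of all genes. A total of 7 of the 10 lay above both WT libraries and 3 below both, against 36.6% and 33.7% of all genes, and the median difference was 1.03 beside 0.0012. The 3 below both were Dcx, Tubb3 and Isl1. Of the 7 above both, Neurod1 passed the filter only through Hand2 cKO 1 and the Gli2/3 cKO library. Olig3 passed only through WT 4 and the Gli2/3 cKO library, and Pax6 reversed on its most abundant transcript. With 1 Gli2/3 cKO library, the count of 7 and the median are a description only.

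Gli2/3 cKO against Hand2 cKO, which does not use the WT libraries for its means, also called 0 of the 10 by edgeR and by DESeq2, with backgrounds of 0.0172% in each direction for edgeR and 0.251% and 0.619% for DESeq2. At an unadjusted edgeR p below 0.05, 4 were higher (Pax6, Olig3, Dcx and Elavl3) and 0 lower, against 2.86% and 2.63% of all genes. Without Hand2 cKO 2, DESeq2 called 1 of them higher (Dcx) and 0 lower, against 0.52% and 1.08% of all genes. Of the 10, 6 lay above all 3 Hand2 cKO libraries and 2 below them, against 28.7% and 27.2% of all genes. The median difference was 1.13 beside -0.015 for all genes. Of the genes higher at the unadjusted p, Olig3 passed the filter only through WT 4 and the Gli2/3 cKO library. Pax6 reversed on its most abundant transcript, and Dcx and Elavl3 had their lowest level in Hand2 cKO 2.

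**Figure D4:**
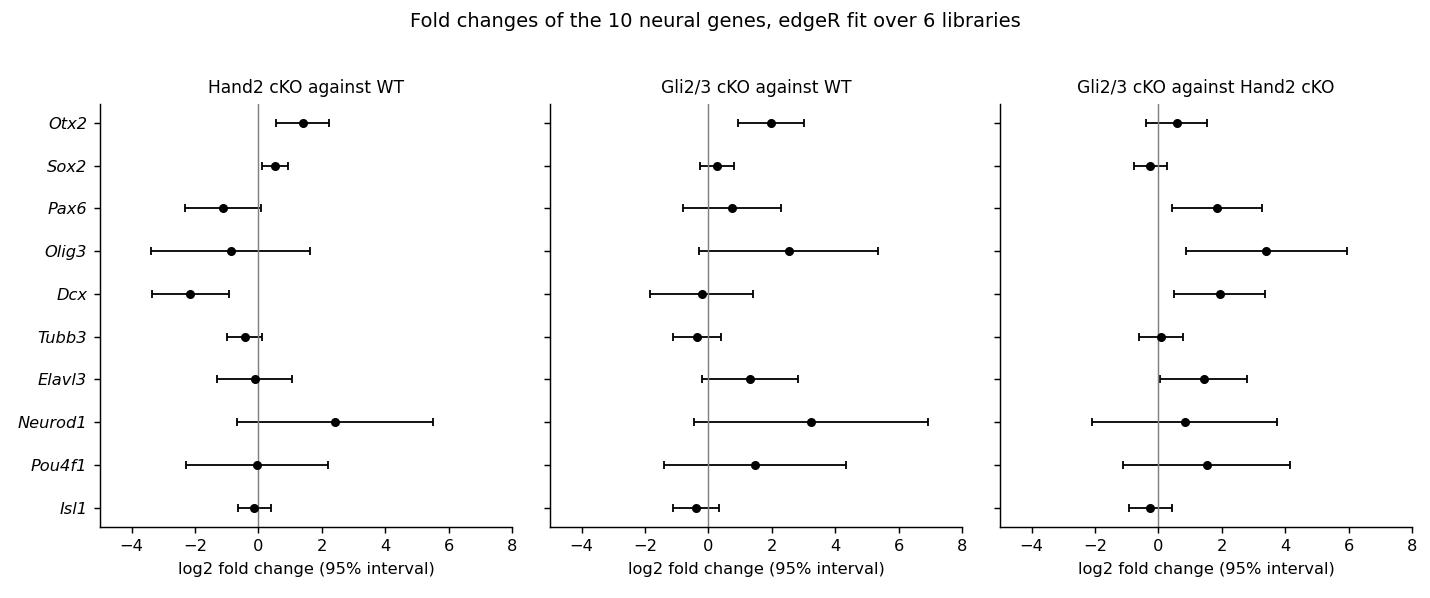
Differences on the log2 scale with 95% intervals for the 10 genes in the 3 comparisons, from the edgeR fit over all 6 libraries; the vertical line marks no difference. In Hand2 cKO against WT the intervals of Otx2 and Sox2 lie above 0 and that of Dcx below it, and the widest intervals belong to Neurod1, Olig3 and Pou4f1.

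The Gli2/3 cKO library was the highest of the 6 for 5 of the 10 genes, namely Otx2, Pax6, Olig3, Elavl3 and Pou4f1, and for 18.7% of all genes tested. It was more than 2-fold above each other library for Olig3, against 1.27% of all genes. The same library was then set against lists of other genes of brain, ganglion, nerve and motor neurons.

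Of 20 further brain and neural tube genes, Wnt8b and Dbx1 had no count in any library and 4 others had at most 3 counts in every library. Sox1, a neural plate factor, had 22 counts in the Gli2/3 cKO library and 1 and 6 in WT and 0, 1 and 2 in the Hand2 cKO. Hes5, a Notch target of neural progenitors, had 20 counts there and 2, 0, 1, 4 and 2 in the other libraries. Pooled counts put Gli2/3 cKO at 28.3-fold of WT for Hes5, with an exact counting interval of 6.87 to 249.7. Both were near the detection limit outside the Gli2/3 cKO library. Sox3 had 7 counts in it and at most 5 in any other. In levels these genes were low even there, at 0.842 CPM for Sox1, 0.765 for Hes5 and 0.268 for Sox3. They could be tested mainly because of that library, and in the edgeR fit none was called, with adjusted p of 0.824 for Hes5 against WT and 0.701 against the Hand2 cKO.

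Of the more abundant genes of that list, Gbx2 is a hindbrain gene that the first arch also makes. Its CPM was 15.6 in WT 3 and 2.92 in WT 4, 22.7, 26.9 and 23.5 in the Hand2 cKO and 14.6 in the Gli2/3 cKO, and it made up 60.2% of the summed CPM of the list. Emx2, a cortical gene also made in facial mesenchyme, had 7.15, 0.840, 9.55, 11.8, 13.6 and 16.0 CPM in the same order. WT 4 was the lowest for both. The midbrain and spinal cord genes En1, Nkx2-2, Nkx6-1, Olig2 and Neurog2 had 5, 1, 2, 0 and 2 counts in the Gli2/3 cKO library, and Nkx2-2 and Neurog2 had 0 in every other library. Nkx6-1 was instead lowest in the Gli2/3 cKO library, at 0.0765 CPM against means of 0.218 in WT and 0.155 in the Hand2 cKO. En1 was at 0.191 CPM in the Gli2/3 cKO library, with a WT mean of 0.179 CPM and no count in the Hand2 cKO. Of the 9 genes of the list that were tested, 6 were highest in that library, and 5 were more than 2-fold above each other library, against 18.7% and 1.27% of all genes. Several of the 9 passed the filter mainly through that library, so the count is a description.

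Of 14 further sensory neuron genes in the files, 9 were tested and 0 of these were highest in the Gli2/3 cKO library, against 18.7% of all genes. Among untested genes Neurog1 and Neurod4 were highest there, as was Pou4f1 of the 10 genes above, and whether the brain and ganglion lists differed was not tested. Isl2, a LIM-homeobox relative of Isl1, had 12.1 and 16.8 CPM in WT, 10.1, 13.4 and 10.8 CPM in the Hand2 cKO and 3.44 CPM in the Gli2/3 cKO. That library lay below all others, by -2.07 ± 0.35 against WT and -1.73 ± 0.33 against the Hand2 cKO, which edgeR did not call (adjusted p = 0.437 and 0.458) and DESeq2 did (adjusted p = 0.000101 and 0.00109). Over the alternatives the adjusted p against WT ran from 3.72e-07 to 0.968. Runx3, a factor of proprioceptive neurons and cartilage, had 8 to 17 counts in the other libraries and 0 in the Gli2/3 cKO.

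Neurog1, an early neurogenic gene, did not pass the filter. It had 10 counts in the Gli2/3 cKO library and 0, 0, 3, 0 and 0 in the others, in the order WT 3, WT 4 and Hand2 cKO 1 to 3. Neurod4, a related neuronal differentiation factor, had 5 counts in it and 0, 3, 3, 0 and 1 in the others. Peripherin (Prph), an abundant protein of ganglion neurons, had at most 2 counts in any library and Pou4f2 had none. The cranial motor and visceral genes Chat and Dbh had no count in any library. Other genes of the ganglion and motor lists were present in every library, among them P2rx3 at 1.21 to 2.17 CPM, Ntrk3 at 0.818 to 2.52 CPM, Runx1 at 2.03 to 4.86 CPM, Avil at 0.575 to 1.14 CPM, Th at 2.74 to 4.32 CPM and Tbx20 at 0.290 to 1.86 CPM.

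Of 20 further pan-neuronal genes, the axonal growth gene Gap43 was the main one, at 56.9 to 107 CPM, and made up 58.0% of the summed CPM. Ina, an intermediate filament of early neurons, had 22 counts in the Gli2/3 cKO library and 8, 1, 4, 5 and 6 in the others, a difference from WT of 2.89 ± 0.88 (edgeR adjusted p = 0.913). Myt1 had 13 counts in it and 0 to 5 elsewhere. In the Hand2 cKO the genes Celf3 and Nhlh2 had values on the same side of WT as Dcx, at -1.22 ± 0.42 and -1.24 ± 0.50, and neither passed the adjusted threshold (edgeR adjusted p = 0.723 for each). Nhlh2 was at 1.87 and 2.34 CPM in WT and at 1.08, 1.19 and 0.385 CPM in the Hand2 cKO, without overlap. Its difference ran from -1.51 to -0.10 over 14 alternative settings. Over the list the median difference was -0.19 in the Hand2 cKO and 0.07 in the Gli2/3 cKO, with 0 genes called by edgeR or DESeq2 in either, and, of the 18 tested, 2 lower at an unadjusted edgeR p below 0.05 in the first and 2 higher in the second, against 4.02% and 1.63% of all genes.

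Genes of nerve glia, the crest cells that travel along nerves, differed between the WT libraries. Sox10, the defining factor of these cells, had 104 counts in WT 3 and 1 in WT 4, 110, 49 and 41 in the Hand2 cKO and 14 in the Gli2/3 cKO. Foxd3 had 23 and 0 counts in WT, 12, 6 and 10 in the Hand2 cKO and 0 in the Gli2/3 cKO. Erbb3, a receptor of crest-derived glia that other cells also make, was present throughout, at 10.4 to 21.9 CPM. Ngfr, a receptor of crest, glia and sensory neurons, was at 7.40 and 2.83 CPM in WT, 17.2, 14.1 and 16.7 CPM in the Hand2 cKO and 7.96 CPM in the Gli2/3 cKO. All 3 Hand2 cKO libraries were above the others, by 1.63 ± 0.41 against WT (edgeR adjusted p = 0.604, DESeq2 adjusted p = 0.00796, range over alternatives 0.00159 to 0.953).

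WT 4 thus had the lowest CPM of Pou4f1, Neurod1, Sox10, Ngfr, Gbx2 and Emx2, and the highest of Isl1, Isl2 and Gap43. The low genes span sensory neurons, glia and arch mesenchyme, and which tissue the dissection took in WT 4 was not tested. Every comparison with WT rests on this library and 1 other.

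**Figure D5:**
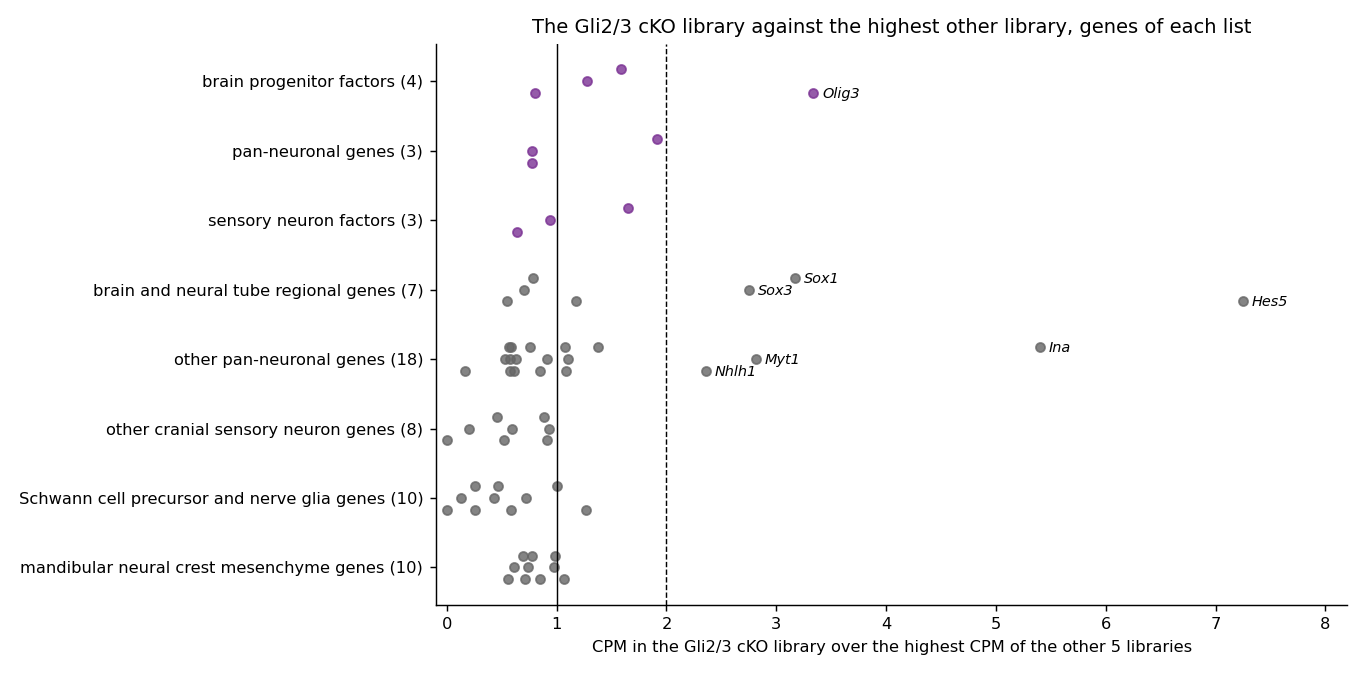
Ratio of CPM in the Gli2/3 cKO library to the highest CPM of the other 5 libraries for tested genes of each list (number drawn in brackets), with lines at 1 and 2 and genes above 2 named. Sox1, Sox3 and Hes5 of the brain list and Ina, Myt1 and Nhlh1 of the pan-neuronal list lie above 2 with Olig3. Genes that did not pass the filter are not drawn, among them the ganglion gene Neurog1, whose ratio was 6.74.

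For 1 gene of each role, the genes whose log2 CPM was most like it over the 6 libraries were ranked by Pearson correlation among the more abundant genes. Nearest to Otx2 were Bcat1 (r = 0.991), Ttk (0.989), Tsr1 (0.988) and Orc5 (0.981), with 143 of 11542 genes above 0.9. Nearest to Tubb3 were Cln3 (r = 0.971), Vamp2 (0.966), Slc12a9 (0.955) and Notch4 (0.955), with 43 above 0.9. Nearest to Neurod1 were Cep57 (r = 0.972), Wnt9b (0.964), Stxbp3 (0.962) and Ppp2r1b (0.960), with 91 above 0.9. No other of the 10 genes was among these neighbours. Only genes with a mean log2 CPM of at least 1 were ranked, so Otx2, Pax6, Olig3, Elavl3, Neurod1 and Pou4f1 could not appear. With 6 libraries that also share genotype, depth and composition, these correlations are a description only.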

How the data were processed

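MNPs were dissected from E10.5 CD1 embryos and polyA RNA was sequenced. According to the study's methods, read pairs were aligned to mm10 and transcript abundance was estimated in Strand NGS, with its version, annotation and strand setting not given in the sources used here. The deposited values are estimated counts per transcript, not whole numbers and not normalized. The study names 2 sequencers in different places.

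Here, counts of the 105129 transcripts were summed by gene symbol and rounded. A quasi-likelihood model with genotype alone was fitted in edgeR 4.0.16 (R 4.3.3) to 6 libraries, with TMM scaling and filterByExpr (minimum count 10), leaving 17477 genes and 3 residual degrees of freedom. Calls needed an adjusted p (Benjamini-Hochberg over all tested genes) under 0.05 with a fold over 1.5. All groups shared 1 estimate of the spread, and the Gli2/3 cKO library was assumed to vary like the others. An exact permutation test of 2 against 3 libraries cannot reach p below 0.05. DESeq2 1.42.0 was an alternative, as were upper-quartile scaling, no filter, a robust prior, only the 2 groups compared, removal of the length trend, the most abundant transcript only, and each library left out. The fits were tested on simulated data. Coordinates and lengths are from GENCODE M21 (GRCm38), and start windows from RefSeq on GRCm38.p6. A count of 0 was taken to allow 3 counts, and intervals on CPM and on pooled-count ratios are exact 95% intervals. Both kinds of interval cover counting error only and leave out the spread between libraries. The 10 genes and the other lists were chosen with earlier results of these data known. All 10 genes are named, and from each other list the 2 highest per kilobase and those with the smallest p, beside genes named for being at or near 0 or high in the Gli2/3 cKO library, chosen after their values were seen. No 2 libraries agreed within sampling noise. The other 4 samples are not analysed here. Some genes of the other lists are not reported here.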

Additional observations from a re-analysis of the deposited data

How the results depend on the processing

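None of the 10 genes was called by edgeR under any setting tried, and DESeq2 alone called Dcx. Among 395 recomputed differences of the 10 genes, 377 kept their direction and their side of the threshold, 3 passed it (Dcx lower in Hand2 cKO by -2.14 in DESeq2 and -1.78 without Hand2 cKO 2, and 1.56 higher in Gli2/3 cKO than in Hand2 cKO without it) and 15 reversed. For Hand2 cKO against WT the reversals were Pou4f1 (0.019 in DESeq2, 0.062 with the length trend removed, -0.80 to 2.87 with 1 library left out, positive without WT 3, Hand2 cKO 2 or Hand2 cKO 3, and 0.26 in DESeq2 without Hand2 cKO 2), Elavl3 (0.24 on the most abundant transcript, -0.48 to 0.14 with 1 library left out, at 0.13 and in DESeq2 0.14 without Hand2 cKO 2), Isl1 (0.051 on the most abundant transcript, -0.40 to 0.20 with 1 left out, positive without WT 4) and Olig3 (-1.68 to 0.26 with 1 left out, positive without WT 4). On the most abundant transcript Pax6 turned to -3.14 (Gli2/3 cKO against WT) and -1.77 (against Hand2 cKO), because that transcript is Pax6-221. Tubb3 in Gli2/3 cKO against Hand2 cKO was -0.034 without Hand2 cKO 1 and up to 0.25 with another library left out. The other causes were not tested.

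The number of genes called over the whole table was unstable. It was 2 for Hand2 cKO against WT, with 1 under upper-quartile scaling, 45 with no filter, 181 in DESeq2, 45 with the length trend removed, 1 on the most abundant transcript and 1 to 39 with 1 library left out. It was 2 for Gli2/3 cKO against WT, with 21 with no filter, 129 in DESeq2, 0 with a robust prior, 8 with the length trend removed, 0 on the most abundant transcript, 57 with only those 2 groups and 0 to 14 with 1 library left out. It was 6 for Gli2/3 cKO against Hand2 cKO, with 39, 142, 29, 0 and 20 under no filter, DESeq2, length trend, most abundant transcript and 2 groups, and 2 to 23 with 1 library left out. DESeq2 without Hand2 cKO 2, added after the data were seen, called 221, 329 and 259. No paired analysis was possible because WT and Hand2 cKO share only replicate number 3 among these libraries.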
